A study of Homo sapiens with 6 samples.

Results

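The 10 genes described here encode the cyclins, kinases and brakes that act at the entry from G1 into S phase: CCND1, CCND3, CCNE1 and CCNE2 (cyclins), CDK4, CDK6 and CDK2 (cyclin-dependent kinases), CDC25A (a CDK-activating phosphatase), CDKN1B (the inhibitor p27) and RB1 (the pocket protein RB). They were selected by gene symbol from a table of 17939 genes. RNA came from LY2, a tamoxifen-resistant breast cancer cell line that is positive for the estrogen receptor (ER+). The 3 siCDK12 libraries came from cells transfected with 30 nmol/L of an ON-TARGETplus siRNA pool against CDK12, a kinase that acts on elongating RNA polymerase II. The 3 siCtrl libraries came from cells given a non-targeting pool in the same way. Per the study's methods, all cells were deprived of serum and of 4-hydroxytamoxifen before transfection, and the 3 libraries of a group were biological replicates. LY2 cells were kept in medium free of phenol red, with charcoal-stripped serum. Added estradiol is mentioned for the chromatin immunoprecipitation and not for the RNA. RNA was taken 48 hours after transfection, so the comparison holds for 1 cell line, 1 siRNA pool and 1 time.

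Cyclin D with CDK4 or CDK6, and then cyclin E with CDK2, phosphorylate RB, which releases E2F transcription factors and lets the cell start DNA replication. p27 binds and inhibits cyclin E-CDK2, whereas CDC25A removes the inhibitory phosphates that WEE1-family kinases place on CDKs. In ER+ breast cancer, estrogen signaling drives cyclin D1, and drugs against CDK4 and CDK6 are combined with endocrine therapy.

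Expression was given as FPKM, fragments per length of transcript scaled to the mapped total of the library, which allows levels of different genes to be set side by side. All 10 genes reached the minimum for a test, an average of 1 FPKM across libraries, as did 11533 genes in all. Differences were tested with limma, a linear model with moderated variances, on log2(FPKM + 0.1), and calls were made where the p adjusted over all tested genes was under 0.05. Fold changes are siCDK12 over siCtrl on that log2 scale. The transcript of the targeted gene, CDK12, had 2.23, 2.83 and 2.44 FPKM in siCDK12 cells, against 11.17, 10.7 and 10.3 FPKM in siCtrl cells. Its mean fell by 76.7%.

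Libraries correlated at Pearson r of 0.9955 to 0.9966 across genes within a group and 0.9897 to 0.9913 between groups. FPKM sums ranged from 448633 to 461038 and genes at 1 FPKM or more from 11488 to 11538 per library, so that no library stood apart. All 8 luminal epithelial markers reached 1 FPKM, ESR1 (the estrogen receptor) among them, and their summed level was 5257 to 5373 FPKM in siCDK12 cells and 4830 to 4868 FPKM in siCtrl cells. The markers did not move together. Most of the rise in the sum came from KRT8 (mean 2091 FPKM in siCDK12 cells, 1850 FPKM in siCtrl cells) and KRT18 (1291 and 1133 FPKM). GATA3 and CDH1 were also called higher, KRT19, EPCAM and FOXA1 were not called, and ESR1 was called lower. Of 6 fibroblast markers only COL1A1 (a collagen chain) reached 1 FPKM, and the summed list was 10.72 to 11.22 FPKM in siCDK12 cells and 7.78 to 8.64 FPKM in siCtrl cells. None of 3 endothelial and none of 4 leukocyte markers reached 1 FPKM, while ACTA2 and TP63 did among 5 basal markers, whose sum was 10.32 to 10.61 FPKM in siCDK12 cells and 9.8 to 10.73 FPKM in siCtrl cells. What part the shifts in the summed luminal and fibroblast levels had in the results was not tested. In such bulk RNA, fewer cells in a given state and less RNA per cell cannot be told apart.

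Promoter sequences are shown for CDC25A and CCNE1, the gene that fell most and the cyclin that rose, because both are known as E2F-regulated genes. Each line gives the 250 bases before the start of the gene (RefSeq, GRCh38.p14), 5′ to 3′ on the strand of the gene. Capitals mark the GC box letters GGGCGG, read on either strand, and the E2F letters TTTCCCGC, TTTCGCGC, TTTGCCGC or TTTGGCGC, also on either strand.
CDC25A, chr3:48188418-48188667, minus strand: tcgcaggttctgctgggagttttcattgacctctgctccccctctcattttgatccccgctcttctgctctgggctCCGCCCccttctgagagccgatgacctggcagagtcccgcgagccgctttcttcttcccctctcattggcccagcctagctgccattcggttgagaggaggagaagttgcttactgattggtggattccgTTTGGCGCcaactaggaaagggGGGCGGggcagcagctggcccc
CCNE1, chr19:29811741-29811990, plus strand: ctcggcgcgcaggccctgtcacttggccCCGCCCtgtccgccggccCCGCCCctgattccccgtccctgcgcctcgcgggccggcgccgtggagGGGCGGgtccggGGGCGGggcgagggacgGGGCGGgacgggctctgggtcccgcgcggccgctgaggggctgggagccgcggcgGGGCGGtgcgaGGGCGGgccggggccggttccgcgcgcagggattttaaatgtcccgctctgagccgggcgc

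The CDC25A window held 1 E2F match, TTTGGCGC, at bases -44 to -37 from the start, and 2 GC boxes. The CCNE1 window held 7 GC boxes and no match to these E2F letters, which says only that these exact letters were not in the window. No E2F match overlapped a GC box in either sequence. RefSeq promoters at the 5′ end of the gene were matched for 5 of the 10 genes (CDK4, CDK6, CCNE1, CDKN1B and CDC25A). The E2F letters were present in 1 of these 5 and in 2.76% of 24882 promoters of the same length, and GC boxes were present in 5 of 5 and in 41.7%. The 24882 were all RefSeq genes with a promoter so matched, whether or not they were expressed here, so these are not the shares of expressed genes. CCAAT was found in CDKN1B and CDC25A and in 33.4% of all promoters, and the letters TTTGAA, the cell cycle homology region, in none of the 5 and in 13.8%. These matches are descriptions of sequence and were not tested against expression.

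With siCDK12, 1 of the 10 genes rose (CCNE1) and 3 fell (CDC25A, CDK2 and CDK6), while 6 did not pass the test. Over all tested genes, 28.3% passed, 16.1% upward and 12.3% downward, so 4 of 10 can be read only against a background that was itself large. Upward calls made up 56.7% of all calls, and 45.2% with median-ratio scaling. The study itself, which ran DESeq2 on read counts, reported more genes down than up, so the balance of directions depends on the method. The 3 siCDK12 values did not overlap the 3 siCtrl values for 7 of the 10 genes, against 43.1% of all tested genes. The median log2 fold change was -0.02 over the 10 genes and 0.03 over all 11533, and the median size of the change, irrespective of sign, was 0.11 over the 10 genes and 0.10 over all. CDC25A stood at one end, and the D-type cyclins, CDK4, p27 and RB lay near 0. For any single gene, an exact two-sided permutation test of 3 against 3 libraries cannot go below p = 0.1, which is the value of each of the 7 genes without overlap.

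**Figure D1:**
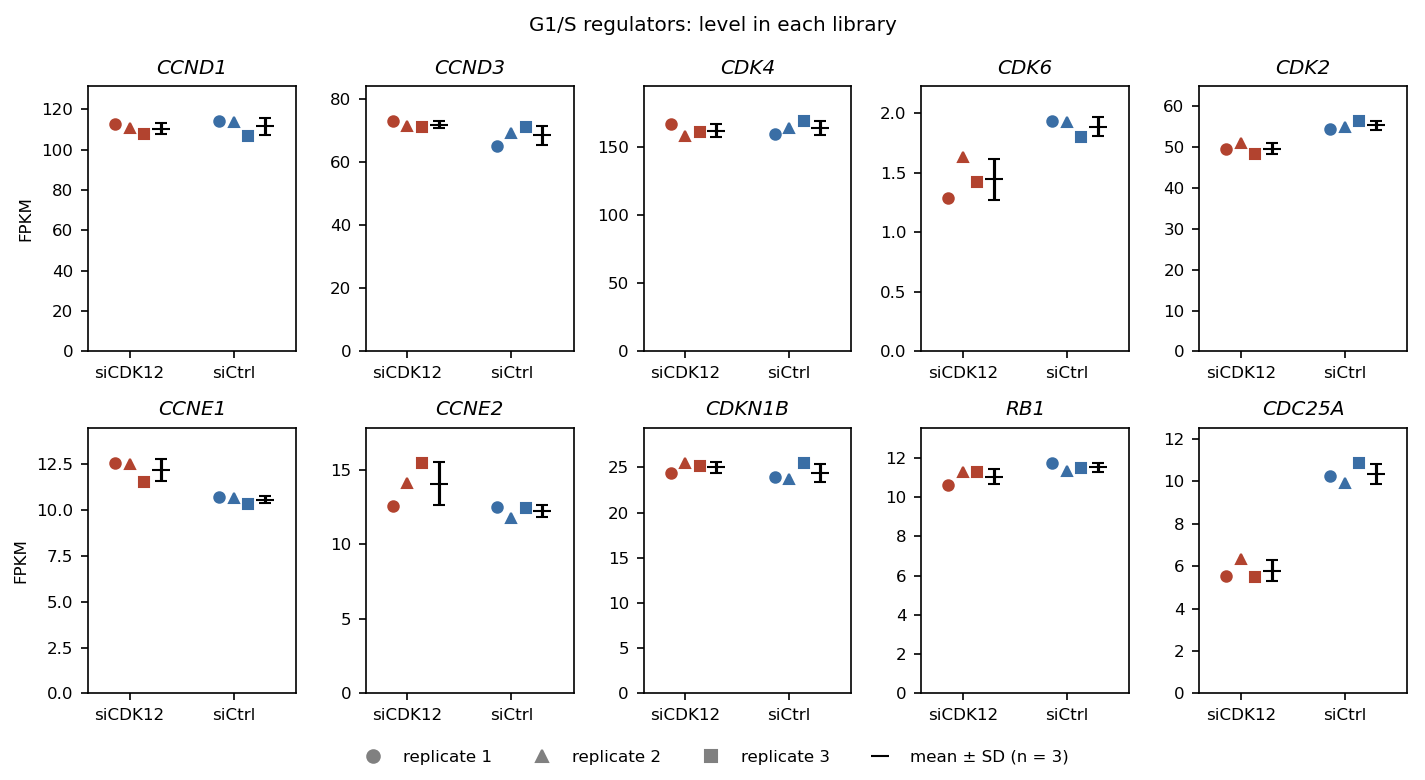
FPKM (y axis, from 0) of the 10 G1/S genes in each of the 3 siCDK12 (red) and 3 siCtrl (blue) libraries, with symbols for replicate numbers and bars for mean ± SD. CDC25A lies at 5.51 to 6.36 FPKM in siCDK12 cells and at 9.93 to 10.89 FPKM in siCtrl cells, while CCND1, CDK4 and CDKN1B overlap between the groups.

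CCND1 encodes cyclin D1, the D-type cyclin that estrogen induces in breast epithelium, and lies at chr11:69641156-69654474 with 5 exons. It had 112.9, 110.6 and 107.6 FPKM in siCDK12 cells, against 114.4, 113.6 and 106.8 FPKM in siCtrl cells. The ranges were nearly the same, and the lowest value in each group came from replicate 3. The log2 fold change was -0.01, with a 95% interval of -0.10 to 0.07 (adjusted p = 0.80). Its sign turned when siCDK12 replicate 3 or siCtrl replicate 1 was left out, each time within 0.01 of 0. The largest overlap of a CCND1 exon with an exon of LTO1, on the opposite strand, was 253 bases.

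CCND3, at chr6:41934933-42050035, encodes cyclin D3, which also activates CDK4 and CDK6. It had 73.08, 71.27 and 71 FPKM in siCDK12 cells, against 65.09, 69.05 and 70.99 FPKM in siCtrl cells. The groups touched, separated by 0.01 FPKM only, and the spread lay mostly among siCtrl libraries, with an SD of 3.01 FPKM against 1.13 FPKM in siCDK12 cells. The difference of 0.07 on the log2 scale did not pass the test (95% interval -0.02 to 0.16, adjusted p = 0.202). The third D-type cyclin, CCND2, was listed at 0 to 0.02 FPKM and was not tested.

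CDK4, the kinase partner of cyclin D that had the highest level of the 10 genes, lies at chr12:57747727-57752310. It had 166.8, 157.7 and 160.5 FPKM in siCDK12 cells, against 158.9, 163.3 and 169 FPKM in siCtrl cells. The groups overlapped almost fully, and the log2 fold change was -0.02 with an interval of -0.10 to 0.06 (adjusted p = 0.747). The largest overlap of a CDK4 exon with an exon of TSPAN31, on the opposite strand, was 891 bases. TSPAN31 had 10.6 ± 0.60 FPKM in siCDK12 cells and 10.5 ± 1.23 FPKM in siCtrl cells (SD, n = 3 each, adjusted p = 0.933). Whether the shared bases had a part in the values of CDK4 was not tested.

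CDK6, the second cyclin D kinase, is a long gene of 231.7 kb at chr7:92604921-92836573 and had the lowest level of the 10. It had 1.29, 1.63 and 1.42 FPKM in siCDK12 cells, against 1.94, 1.93 and 1.8 FPKM in siCtrl cells. Every siCDK12 library lay below every siCtrl library, with a gap of 0.17 FPKM between the nearest of them, and the mean fell by 23.5%. The log2 fold change of -0.37 (95% interval -0.63 to -0.11) passed the test at adjusted p = 0.0369. With 5 libraries in place of 6 the direction was kept, with log2 fold changes of -0.45 to -0.29, but the call was lost without siCDK12 replicate 1 (adjusted p = 0.112) or 3 (0.0879), and without siCtrl replicate 1 (0.0942), 2 (0.0958) or 3 (0.0556). It was also lost without the filter on low genes (0.0683), and over the alternatives the adjusted p ranged from 0.0193 to 0.112.

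Ratios between genes within a library, here and below, were taken on FPKM + 0.1, and apart from that constant do not depend on library scaling. For a gene as low as CDK6, the added 0.1 makes the ratio to it smaller than that of the FPKM values. So taken, the ratio of CDK4 to CDK6 was 91.2 to 120 in siCDK12 libraries and 77.9 to 89.0 in siCtrl libraries, higher in each siCDK12 library. The log2 difference between groups was 0.35, against 0.22 with 1 added and 0.37 with 0.01 added. The log2 ratio averaged 6.71 ± 0.20 in siCDK12 cells and 6.36 ± 0.10 in siCtrl cells (SD, n = 3 each). CCND1 was 1.52 to 1.55 times CCND3 in siCDK12 libraries and 1.504 to 1.756 times in siCtrl libraries, and these ranges overlapped.

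CDK2, the kinase that cyclin E activates at the start of S phase, lies at chr12:55966830-55972789. It had 49.65, 50.99 and 48.4 FPKM in siCDK12 cells, against 54.54, 55.04 and 56.54 FPKM in siCtrl cells. The groups did not overlap, and each had an SD under 1.5 FPKM, and the mean fell by 10.3%, a difference larger than the replicate spread. The log2 fold change was -0.16 (95% interval -0.24 to -0.08, adjusted p = 0.00891), and CDK2 passed the test under each of the 16 alternatives tried (adjusted p of 0.00461 to 0.0425). On the opposite strand, a single CDK2 exon overlaps an exon of an unnamed long noncoding RNA by up to 287 bases. The largest such overlap with PMEL, a melanosome gene, was 66 bases. PMEL, itself at a low level, had 1.80 ± 0.25 FPKM in siCDK12 cells and 1.25 ± 0.07 FPKM in siCtrl cells (SD, n = 3 each, adjusted p = 0.0155). Whether the shared bases had a part in the values of CDK2 was not tested.

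CCNE1 encodes cyclin E1, the partner of CDK2, and lies at chr19:29811991-29824312 with 12 exons. It had 12.57, 12.48 and 11.5 FPKM in siCDK12 cells, against 10.72, 10.62 and 10.34 FPKM in siCtrl cells. All siCDK12 values were above all siCtrl values, with replicate 3 nearest to them, and the mean rose by 15.4%. The log2 fold change was 0.20 (95% interval 0.09 to 0.32, adjusted p = 0.0144). The call was lost without siCDK12 replicate 1 (adjusted p = 0.0532) or replicate 2 (0.0502), with a range over the alternatives of 0.0129 to 0.0532.

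CCNE2, at chr8:94880224-94896693, encodes cyclin E2, the second CDK2-activating E-type cyclin. It had 12.57, 14.11 and 15.47 FPKM in siCDK12 cells, against 12.47, 11.73 and 12.45 FPKM in siCtrl cells. The siCDK12 libraries spread widely, and the lowest of them lay 0.10 FPKM above the highest siCtrl library. The mean was 15.01% higher, close to the difference of CCNE1, but the larger spread left it short of the threshold (log2 fold change 0.20, 95% interval 0.04 to 0.35, adjusted p = 0.0565). It passed without siCDK12 replicate 1 (adjusted p = 0.0118), at a minimum mean of 5 FPKM (0.0495) and with FPKM sums made equal (0.04998). The largest overlap of a CCNE2 exon with an exon of INTS8, on the opposite strand, was 1522 bases. INTS8 had 30.1 ± 0.90 FPKM in siCDK12 cells and 29.1 ± 0.30 FPKM in siCtrl cells (SD, n = 3 each, adjusted p = 0.392). Whether the shared bases had a part in the values of CCNE2, or in its ratio to CCNE1 below, was not tested.

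The E-type cyclins were at like FPKM levels, with the limit of the shared exon bases given for CCNE2. CCNE1 was 0.745 to 1.00 times CCNE2 in siCDK12 libraries and 0.832 to 0.906 times in siCtrl libraries, and the ranges overlapped. In siCDK12 cells the ratio differed more between replicates than in siCtrl cells, because CCNE1 was lowest and CCNE2 highest in replicate 3. The ratio of CDK4 to CDK2 was 3.09 to 3.36 in siCDK12 libraries and 2.91 to 2.99 in siCtrl libraries, without overlap.

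CDC25A encodes the phosphatase that activates cyclin E-CDK2 and cyclin A-CDK2 and is destroyed after DNA damage, and it changed most among the 10 genes. It lies at chr3:48157146-48188417 on the minus strand, spans 31.3 kb and has 15 exons, and its promoter is printed above. CDC25A had 5.52, 6.36 and 5.51 FPKM in siCDK12 cells, against 10.26, 9.93 and 10.89 FPKM in siCtrl cells. The nearest libraries of the groups were 3.57 FPKM apart, which is 7.32 times the larger SD, and the mean fell by 44.1%, to 5.80 ± 0.49 FPKM in siCDK12 cells, against 10.4 ± 0.49 FPKM in siCtrl cells (SD, n = 3 each). The log2 fold change was -0.83 (SE 0.07, 95% interval -0.98 to -0.68, adjusted p = 2.02e-05). Among 11533 tested genes, 60 were lower by at least as much, CDC25A included, and 65 had a smaller p. Over the 16 alternatives the log2 fold change of CDC25A lay between -0.90 and -0.74 and the adjusted p between 8.77e-06 and 0.000715.

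The other CDC25 phosphatases, which act mainly at entry into mitosis and are named here after their values were seen, did not pass the test. CDC25B had 61.7 ± 1.82 FPKM in siCDK12 cells and 58.9 ± 0.32 FPKM in siCtrl cells (SD, n = 3 each, log2 fold change 0.07, adjusted p = 0.181). CDC25C had 5.36 ± 0.48 FPKM in siCDK12 cells and 6.04 ± 0.51 FPKM in siCtrl cells (log2 fold change -0.17, adjusted p = 0.154).

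**Figure D2:**
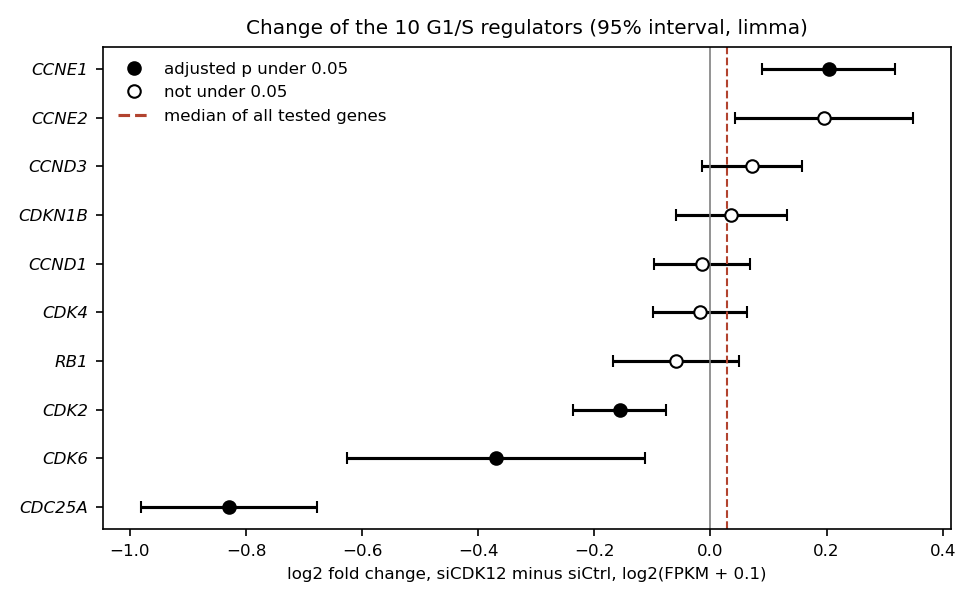
Log2 fold change (x axis, siCDK12 minus siCtrl, log2(FPKM + 0.1)) of the 10 genes with 95% intervals from limma, filled circles for adjusted p under 0.05 and a dashed line at the median of all tested genes, 0.03. CDC25A at -0.83 lies apart from the other 9 genes, whose values run from -0.37 (CDK6) to 0.20 (CCNE1).

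CDKN1B encodes p27, the brake on cyclin E-CDK2, whose abundance is set to a large extent by protein turnover, and lies at chr12:12717368-12722369. It had 24.35, 25.5 and 25.14 FPKM in siCDK12 cells, against 23.9, 23.75 and 25.52 FPKM in siCtrl cells. The groups overlapped, since siCtrl replicate 3 had the highest value of all 6 libraries. The log2 fold change was 0.04 (95% interval -0.06 to 0.13, adjusted p = 0.574). CCNE1 was 0.460 to 0.518 times CDKN1B in siCDK12 libraries and 0.408 to 0.451 times in siCtrl libraries, so the ratio of cyclin E1 to p27 transcript was higher in every siCDK12 library. CCND1 was 4.27 to 4.62 times CDKN1B in siCDK12 libraries and 4.17 to 4.77 times in siCtrl libraries, which overlapped.

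RB1, the substrate of these kinases and the brake on E2F, is a gene of 178.1 kb with 27 exons at chr13:48303751-48481890. It had 10.6, 11.28 and 11.27 FPKM in siCDK12 cells, against 11.76, 11.31 and 11.48 FPKM in siCtrl cells. The groups did not overlap, but the nearest values were 0.03 FPKM apart, and the log2 fold change of -0.06 did not pass the test (95% interval -0.17 to 0.05, adjusted p = 0.395). CCND1 was 9.48 to 10.6 times RB1 in siCDK12 libraries and 9.24 to 9.96 times in siCtrl libraries, which overlapped.

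The order of the levels was much the same in both groups. CDK4, CCND1, CCND3, CDK2 and CDKN1B followed each other from the highest down, and all 6 libraries of each lay above all 6 of the next. In siCtrl cells CDK4 stood at percentile 96.4 of tested genes, CCND1 at 94.1, CCND3 at 89.1, CDK2 at 86.3 and CDKN1B at 68.3. CCNE2, RB1, CCNE1 and CDC25A then lay close together in siCtrl cells, between percentiles 43.6 and 48.7, where CCNE2 could not be told from RB1 nor CCNE1 from CDC25A beyond their spread. In siCDK12 cells CCNE1 ranked above RB1, with values of 11.5 to 12.57 FPKM against 10.6 to 11.28 FPKM for RB1, and CDC25A lay below both without overlap. CDK6 was the lowest in both groups, at percentile 8.02 in siCtrl cells.

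**Figure D3:**
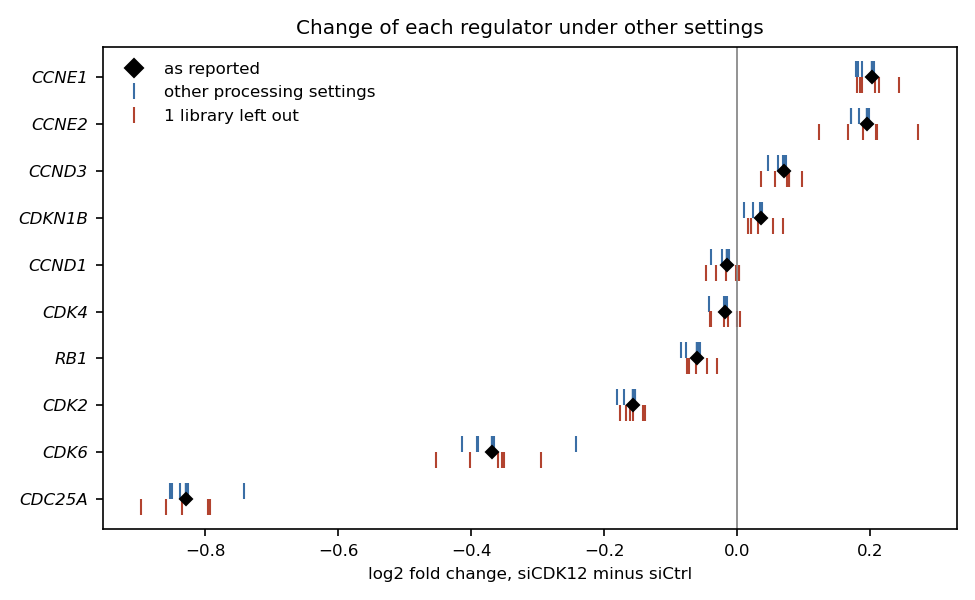
Log2 fold change (x axis, siCDK12 minus siCtrl) of the 10 genes as reported (diamonds), under other processing settings (blue ticks) and with 1 library left out (red ticks). CDC25A stays between -0.90 and -0.74, CDK2 between -0.18 and -0.14, and the sign turns in CCND1 and CDK4 only.

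The 5 tested genes whose profile over the 6 libraries was most like that of CDC25A were ANXA9, C3orf62, UQCC1, PARP9 and E2F7. Likeness was the root mean square difference of the log2 values, each gene centred on its own mean, and it was 0.06 for ANXA9 and 0.07 for E2F7. ANXA9, an annexin, had 23.0 ± 1.00 FPKM in siCDK12 cells and 40.0 ± 0.32 FPKM in siCtrl cells. UQCC1, an assembly factor of respiratory complex III, had 9.02 ± 0.37 FPKM in siCDK12 cells and 17.3 ± 0.50 FPKM in siCtrl cells. PARP9, a macrodomain protein of the PARP family, had 16.9 ± 2.16 FPKM in siCDK12 cells and 29.7 ± 1.17 FPKM in siCtrl cells, and C3orf62 had 0.87 ± 0.08 FPKM in siCDK12 cells and 1.64 ± 0.15 FPKM in siCtrl cells (SD, n = 3 each). In each of the 5 the siCDK12 values all lay under the siCtrl values, which follows from their choice by likeness to CDC25A over the same libraries.

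The 10 genes were then set beside 99 other genes of the pathway in 8 lists, of which 95 were tested, 20 rose and 13 fell. These are 21.1% and 13.7% of the 95, against 16.1% and 12.3% of all tested genes, and the counts of the single lists, most of them small, are to be read against the same background. Among the other G1/S cyclins and kinases, 1 of 6 tested genes rose and none fell (median log2 fold change -0.03, against 0.03 over all tested genes). The gene that rose was CDK7, the CDK-activating kinase, with 16.96 ± 0.29 FPKM in siCDK12 cells and 14.6 ± 0.87 FPKM in siCtrl cells (log2 fold change 0.22, adjusted p = 0.00891). CCNA2, cyclin A2, the later partner of CDK2, had 59.0 ± 0.30 FPKM in siCDK12 cells and 60.8 ± 1.17 FPKM in siCtrl cells and did not pass (adjusted p = 0.376). CCNH, cyclin H, is named after its values were seen. It had 19.95 ± 0.87 FPKM in siCDK12 cells and 22.06 ± 1.47 FPKM in siCtrl cells (SD, n = 3 each). Its log2 fold change of -0.14 did not pass (adjusted p = 0.0758, limma). In this list 1 gene was called lower with median-ratio scaling or without siCtrl replicate 2, and which gene this was is not given here.

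Among the other CDK inhibitors, 1 of 4 tested genes rose and none fell, with a median of 0.22. CDKN2D, which encodes p19INK4d, an inhibitor of CDK4 and CDK6, had 8.61 ± 0.08 FPKM in siCDK12 cells and 6.997 ± 0.58 FPKM in siCtrl cells (log2 fold change 0.30, adjusted p = 0.00637). CDKN1A, which encodes the p53-induced inhibitor p21 and is named after its values were seen, had 124.5, 110.7 and 116.5 FPKM in siCDK12 cells, against 104.4, 104.3 and 111.9 FPKM in siCtrl cells. These groups overlapped, and the log2 fold change of 0.13 did not pass (adjusted p = 0.0552). The count of inhibitors that rose was 2 in 7 of the 16 alternatives, among them those without siCDK12 replicate 1 or 2 and without siCtrl replicate 1 or 3. CDKN2A, the p16 gene, was listed at 0.05 to 0.11 FPKM and was not tested, nor was CDKN1C.

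Among 18 pocket proteins, E2F factors and DREAM subunits, 4 rose and 5 fell (median -0.03). E2F7, an atypical E2F that represses E2F targets, had 4.86, 5.19 and 4.79 FPKM in siCDK12 cells, against 9.63, 9.33 and 9.26 FPKM in siCtrl cells (log2 fold change -0.91, adjusted p = 3.92e-06). LIN52, a subunit of the DREAM complex, fell to 6.32 ± 0.34 FPKM in siCDK12 cells, against 10 ± 0.35 FPKM in siCtrl cells (adjusted p = 3.26e-05). E2F2, an activating E2F, rose to 11.9 ± 0.18 FPKM in siCDK12 cells, against 8.55 ± 0.29 FPKM in siCtrl cells (adjusted p = 9.06e-05). E2F1, E2F8 and TFDP2 also rose, by 0.34, 0.29 and 0.38 on the log2 scale, and E2F4, LIN54 and E2F3 fell, with log2 fold changes of -0.16, -0.20 and -0.21. The call of E2F3, another activating E2F (adjusted p = 0.0274), was lost in 5 of the 16 alternatives: without siCDK12 replicate 1 or 3, without siCtrl replicate 2 or 3, and without the filter. Over the alternatives its log2 fold change lay between -0.25 and -0.17 and its adjusted p between 0.0135 and 0.0925. The call of LIN54 was lost in 4 of the 16, with an adjusted p of up to 0.0657, and that of E2F4 in 1, without the variance trend (0.053). The calls of E2F1 and E2F2 were lost in none of the 16. The count that fell was 3 without siCDK12 replicate 1 or 3 or without siCtrl replicate 2.

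Among 8 genes that control CDK phosphorylation, in the part of the pathway where CDC25A acts, 2 rose and 2 fell (median 0.07). WEE1, a kinase that inhibits CDKs and opposes CDC25A, had 12.42, 11.99 and 12.37 FPKM in siCDK12 cells, against 8.96, 9.67 and 9.4 FPKM in siCtrl cells (log2 fold change 0.39, adjusted p = 0.000302). PKMYT1, a related inhibitory kinase that acts on CDK1, had 79.2 ± 2.39 FPKM in siCDK12 cells and 70.2 ± 3.60 FPKM in siCtrl cells (log2 fold change 0.18, adjusted p = 0.0126). Both kinases thus rose while CDC25A fell. ATR and ATM, the damage kinases upstream of CHEK1 and CHEK2, were lower, ATR at 4.91 ± 0.15 FPKM in siCDK12 cells and 5.86 ± 0.06 FPKM in siCtrl cells (adjusted p = 0.0107). ATM had 0.95, 1.04 and 0.86 FPKM in siCDK12 cells, against 1.37, 1.36 and 1.35 FPKM in siCtrl cells (adjusted p = 0.0193), and it was no longer called without siCDK12 replicate 3 or without siCtrl replicate 1 or 2.

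Of 15 genes in the ubiquitin turnover of G1/S regulators, 2 rose and 1 fell (median 0.07). CKS1B, which lets the SKP2 ligase recognise p27, had 155.9 ± 2.25 FPKM in siCDK12 cells and 177.7 ± 2.44 FPKM in siCtrl cells (log2 fold change -0.19, adjusted p = 0.00139). FZR1, an activator of the anaphase-promoting complex in G1, and FBXO4, an F-box protein linked to cyclin D1 turnover, rose by 0.28 (adjusted p = 0.00696) and 0.37 (adjusted p = 0.0131). SKP2 itself had 9.71 ± 0.58 FPKM in siCDK12 cells and 8.80 ± 0.61 FPKM in siCtrl cells and did not pass (adjusted p = 0.132).

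Of 12 tested genes upstream of cyclin D1 and p27, 2 rose and 2 fell (median 0.08). FOXO3, a forkhead factor that activates CDKN1B, had 6.09, 6.14 and 6.14 FPKM in siCDK12 cells, against 9.09, 9.58 and 8.82 FPKM in siCtrl cells (log2 fold change -0.57, adjusted p = 4.77e-05). ESR1 had 40.4 ± 1.29 FPKM in siCDK12 cells and 50.9 ± 1.58 FPKM in siCtrl cells (log2 fold change -0.33, adjusted p = 0.000187). CDKN1B and CCND1 did not pass the test in the same libraries, as given above. JUN, an AP-1 subunit, had 36.9 ± 4.77 FPKM in siCDK12 cells and 27.6 ± 4.11 FPKM in siCtrl cells (log2 fold change 0.42, adjusted p = 0.0116). The fourth gene called was GSK3B, a kinase that marks cyclin D1 for degradation, at 16.7 ± 0.63 FPKM in siCDK12 cells and 14.9 ± 0.13 FPKM in siCtrl cells. The count that rose was 1 without siCDK12 replicate 3 or siCtrl replicate 2, without the filter and without the variance trend, and the count that fell was 4 with median-ratio scaling.

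Of 20 E2F target genes used at the entry into S phase, 8 rose and 3 fell (median 0.04). MCM6, a subunit of the replicative helicase, had 60.7 ± 0.67 FPKM in siCDK12 cells and 52.6 ± 1.18 FPKM in siCtrl cells (log2 fold change 0.21, adjusted p = 0.00152). SLBP, which binds histone mRNA, had 64.7 ± 1.11 FPKM in siCDK12 cells and 56.2 ± 0.80 FPKM in siCtrl cells (log2 fold change 0.20, adjusted p = 0.00152). MCM5, PCNA, MCM7, POLA1 and MCM3 also rose, with log2 fold changes of 0.215, 0.25, 0.13, 0.24 and 0.14. Their calls were lost in none of the 16 alternatives. MCM2 rose by 0.12, and its call was lost in 6. CDC45, a helicase cofactor, and ORC1, an origin recognition subunit, were among the genes that fell. Their log2 fold changes were -0.13 (adjusted p = 0.0279, limma) and -0.16 (adjusted p = 0.0389, limma). The call of CDC45 was lost in 6 of the 16 and that of ORC1 in 8. Only 1 gene of the list fell without siCDK12 replicate 1 or 2 or siCtrl replicate 1 or 2.

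None of 12 G2 and M phase genes passed the test (median -0.03, limma), and at an unadjusted p under 0.05 none was higher and 1 was lower. That gene, CDC20, an activator of the anaphase-promoting complex in mitosis, had 73.1 ± 3.999 FPKM in siCDK12 cells and 79.1 ± 2.24 FPKM in siCtrl cells (log2 fold change -0.11, adjusted p = 0.0733). With equal FPKM sums, with median-ratio scaling and without siCDK12 replicate 1, 1 of the 12 was called lower. The values of these 12 genes lay between -0.11 and 0.09 on the log2 scale, against -0.91 to 0.47 for the E2F and DREAM list.

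**Figure D4:**
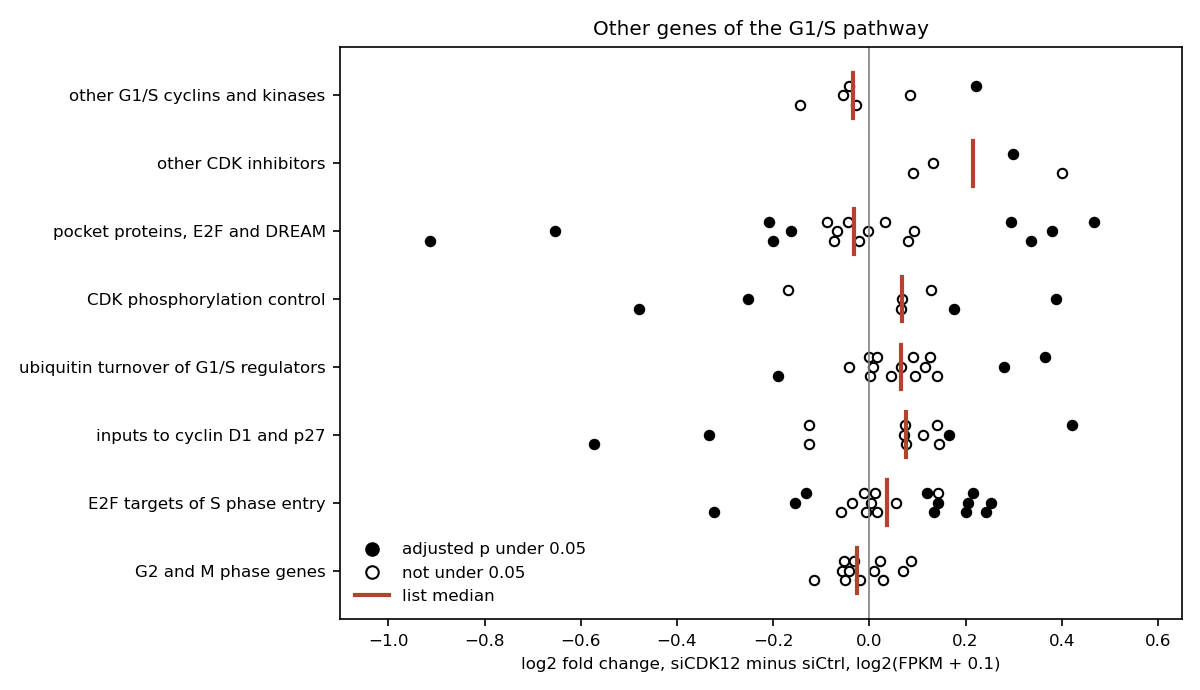
Log2 fold change (x axis, siCDK12 minus siCtrl, log2(FPKM + 0.1)) of each tested gene in the 8 pathway lists, with filled circles for adjusted p under 0.05 and a red bar at the median of each list. E2F7 at -0.91 and LIN52 at -0.65 lie farthest left, and the 12 G2 and M phase genes stay between -0.11 and 0.09.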

How the data were processed

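RNA-seq of 6 LY2 libraries was performed on the BGISEQ-500 platform with paired-end reads. As the study's methods state, SOAPnuke cleaned the reads, which were mapped to GRCh38 with Bowtie2 and quantified with RSEM, and the authors ran DESeq2 on read counts. The deposited values are FPKM, which the authors normalised for transcript length and library total. Whether strand was used in counting is not given in the sources used here. The methods give 1 nominal amount of clean reads for all libraries, but the fragments behind each value were not recovered from FPKM, since RSEM assigns fragments in fractions and values are rounded, so no counting interval is given.

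A two-sided limma test (version 3.58.1, R 4.3.3) with trended empirical Bayes variances was applied to log2(FPKM + 0.1) for the 11533 of 17939 genes that averaged 1 FPKM or more, with Benjamini-Hochberg adjustment. This scale understates changes of low genes. The steps were tested on simulated data. Single genes were compared with an exact permutation test of 20 regroupings. Alternatives were pseudocounts of 1 and 0.01, no filter, a minimum of 5 FPKM, equal sums, median-ratio and quantile scaling, other variance estimates, a replicate block and leaving out each library.

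Named genes were the 10 regulators, CDK12, up to 3 called genes per list with the smallest p, and the 5 profiles nearest to CDC25A; 1 gene that this rule takes is not reported here. All other list genes were named after their values were seen. The regulators and lists were chosen with earlier results of these data known. Positions, promoters and exons came from RefSeq (GRCh38.p14) and GENCODE annotations. Motifs were searched on both strands. Figures used Python 3.11.15 and matplotlib 3.10.9.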

Additional observations from a re-analysis of the deposited data

How the results depend on the processing

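The direction and the call of CDC25A and CDK2 were kept under all 16 alternatives. Of the 10 regulators, 2 rather than 1 were higher at a minimum mean of 5 FPKM and with equal FPKM sums, CCNE2 in addition to CCNE1, and leaving out each library in turn gave 0 to 1 higher and 2 to 3 lower. With a library left out, the log2 fold change of CCND1 ranged from -0.04595 to 0.003071 and that of CDK4 from -0.04092 to 0.004965; the sign of CCND1 turned without siCDK12 replicate 3 (0.003065) or siCtrl replicate 1, and that of CDK4 without siCtrl replicate 3. Over all genes, leaving out a library gave 1193 to 1607 higher, against 1853, and 1048 to 1203 lower, against 1416. The upward share of calls was 49.4% with quantile normalization. Same-numbered libraries did not deviate together (r of -0.003, 0.02 and -0.03), so the numbers were not taken to pair them; a replicate block gave 1550 higher and 1208 lower genes and, of the regulators, 1 higher and 2 lower (and 1 rather than 3 lower S phase genes), with CDK6 at adjusted p = 0.0553 (limma). The fragments behind single values were not recovered, so the counting error of low genes such as CDK6 is not given.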
